A study of Mus musculus with 2 samples.

Results

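Platelet-marked endothelial barcodes are cell barcodes of mouse lung that held RNA of an endothelial cell (EC) and RNA of platelets together. They were chosen in a pair of single-cell libraries as barcodes with 1000 to 5000 genes, under 20% mitochondrial counts and Malat1, a nuclear transcript, at 0.5% or more of all counts. They also held at least 2 counts of the endothelial junction genes Pecam1 and Cdh5 and at least 3 counts of the platelet genes Pf4, Ppbp, Gp9 and Itga2b. A count is a unique molecular identifier (UMI), which marks 1 captured RNA molecule. The rule found 641 members among 15029 endothelial barcodes, which are the barcodes that met all limits except that on platelet genes. Of these members, 323 were in the control library and 318 in the library of melanoma-injected lungs. The comparison group was the 13339 endothelial barcodes with 0 UMIs of the 4 genes, called zero-UMI barcodes here. The remaining 1049 endothelial barcodes held 1 or 2 such UMIs.

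The study followed lung ECs 6 h after cells of B16-F10, a mouse skin melanoma line dyed with a green tracker, reached the lung. Wild-type (WT) C57BL/6 mice received saline (PBS) as control, or 400000 B16-F10 cells in 100 µl, through the tail vein. Cells of several mice were pooled in each library, 2 mice per treatment by the labels, while the study's methods name another number. Lungs were minced and digested, red cells were lysed, and Pecam1-positive, Ptprc-negative cells were sorted, to which the dyed melanoma cells of the injected lungs were added. The gate admits cells with surface Pecam1, which platelets carry too, and it is meant to remove leukocytes. Some barcodes with leukocyte marks remained among the endothelial barcodes. Sequencing gave 85794655 UMIs over all barcodes in control and 104978816 in B16-F10. With 1 library per group there was no replicate error and no test, the injection cannot be told apart from any other difference between the libraries, and every interval below is a 95% interval of counting error only. The libraries shared 14 endothelial barcodes, and no barcode was a member in both.

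Platelets are fragments that megakaryocytes shed into the blood, many of them within the lung. They have no nucleus but keep RNA, mostly of granule contents, surface receptors and the cytoskeleton. They bind to vessel walls and to circulating tumour cells through receptors such as the glycoprotein Ib complex and integrin alpha IIb beta 3, and they release chemokines from their granules.

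The 4 marker genes encode typical platelet products. Pf4 (ENSMUSG00000029373, chr5:90772435-90773383, plus strand) and Ppbp (ENSMUSG00000029372, chr5:90768518-90770063, plus strand) are neighbouring genes of granule chemokines. Gp9 (ENSMUSG00000030054, chr6:87778072-87779768, plus strand) encodes a subunit of the glycoprotein Ib complex, and Itga2b (ENSMUSG00000034664, chr11:102453297-102470122, minus strand) the alpha chain of the platelet integrin. Coordinates are of build GRCm38. Because members were picked by these genes, their promoters are shown for orientation. Each line below gives the 250 bases before the start of the RefSeq transcript on GRCm38.p6, in the direction of the gene, at chr5:90772185-90772434 for Pf4, chr5:90768268-90768517 for Ppbp, chr6:87777820-87778069 for Gp9 and chr11:102469884-102470133 for Itga2b. The gene coordinates above are of GENCODE, another annotation, whose starts can differ from those of RefSeq. The Itga2b window lies mostly within the GENCODE span of that gene. Capitals mark GATAA or its reverse TTATC, a core motif of GATA factors, and GGAAG or its reverse CTTCC, a core motif of ETS factors.
Pf4: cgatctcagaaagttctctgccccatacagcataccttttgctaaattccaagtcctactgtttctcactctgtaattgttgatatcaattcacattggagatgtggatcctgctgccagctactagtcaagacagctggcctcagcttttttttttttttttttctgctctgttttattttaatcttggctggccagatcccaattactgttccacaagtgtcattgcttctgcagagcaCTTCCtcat
Ppbp: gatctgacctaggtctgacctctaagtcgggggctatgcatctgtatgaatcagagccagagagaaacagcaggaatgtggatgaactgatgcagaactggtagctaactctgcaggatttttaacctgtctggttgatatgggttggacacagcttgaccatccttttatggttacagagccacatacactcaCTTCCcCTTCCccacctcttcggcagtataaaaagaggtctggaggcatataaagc
Gp9: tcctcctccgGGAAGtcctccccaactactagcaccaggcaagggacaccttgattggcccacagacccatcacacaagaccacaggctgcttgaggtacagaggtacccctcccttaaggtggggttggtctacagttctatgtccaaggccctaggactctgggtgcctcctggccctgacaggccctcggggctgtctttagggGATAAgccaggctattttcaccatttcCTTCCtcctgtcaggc
Itga2b: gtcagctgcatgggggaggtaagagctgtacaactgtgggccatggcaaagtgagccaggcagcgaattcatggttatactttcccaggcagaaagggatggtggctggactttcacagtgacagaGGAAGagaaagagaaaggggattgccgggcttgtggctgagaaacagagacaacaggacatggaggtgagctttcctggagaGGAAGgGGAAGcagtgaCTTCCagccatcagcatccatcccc
The window of Gp9 held 1 GATAA and 2 GGAAG. The windows of Pf4, Ppbp and Itga2b held 0 GATAA and 1, 2 and 4 GGAAG. Among 27025 promoters of this length, on both strands, 23.0% held GATAA, 63.6% held GGAAG and 13.3% held both, so such letters are common, and their presence or absence says nothing of binding.

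Pf4 carried most of the marking. Members held 2495 UMIs of Pf4 in control and 1981 in B16-F10 lungs, a level of 818 and 606 UMIs per 1000000 UMIs of the summed barcodes (CPM). Ppbp followed with 449.9 and 309 CPM, and Gp9 and Itga2b were near each other at 152 and 153 CPM in control and 116 and 129 CPM in B16-F10. A UMI of Pf4 was present in 96.3% of control and 93.7% of B16-F10 members, of Ppbp in 76.2% and 71.7%, of Itga2b in 57.0% and 56.0%, and of Gp9 in 53.9% and 54.1%. Most members were thus marked by several genes: 109 control and 105 B16-F10 members held all 4, and 42 and 48 held a single gene, which was Pf4 in 37 and 45 of them. The sum over the 4 genes had a median of 8 UMIs in control and 6 in B16-F10 members, with highest values of 162 and 126. These values chose the members and are a description.

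An independent set of platelet genes shows what the threshold separated. At least 1 UMI of 8 other platelet markers (Gp1bb, Gp1ba, Gp5, Gp6, Itgb3, Tubb1, Treml1 and Clec1b) was present in 76.2% (71.1 to 80.7) of control members and 73.9% (68.7 to 78.6) of B16-F10 members. In zero-UMI barcodes this share was 7.61% and 8.92%. The edge of the rule was gradual. Of barcodes with exactly 3 UMIs of the 4 genes, just inside, 47.7% in control (n = 65) and 52.5% in B16-F10 (n = 61) held such a UMI, against 32.4% (n = 108) and 32.1% (n = 131) of barcodes with exactly 2, just outside. Members with 10 or more UMIs reached 94.7% and 98.1%.

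Levels of 9 endothelial markers were set beside the endothelial label. They include Pecam1 and Cdh5, which the rule required of both groups, so the levels of these genes are a description. Their summed level in members was 11659 CPM in control and 10246 CPM in B16-F10, against 12296 and 10847 CPM in zero-UMI barcodes. Pecam1 had 1200.4 and 1130 CPM in members against 1314 and 1245 CPM, and Cdh5 had 1809 and 1752 CPM against 1881 and 1849 CPM. Members were somewhat deeper, with a median of 9206 and 10008.5 UMIs against 7636 and 9065, and a median of 3390 and 3586 genes against 3055 and 3393. Malat1 made up a median of 3.09% and 3.01% of their UMIs against 3.71% and 3.44%. Scrublet, a doublet caller, marked 8.36% and 8.81% of members as doublets and 7.00% and 7.12% of zero-UMI barcodes.

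The first comparison asked how often ECs were platelet-marked in each library and vessel bed. Members made up 4.08% (3.65 to 4.54) of endothelial barcodes in control and 4.47% (4.005 to 4.98) in B16-F10 lungs. The difference of 0.396 percentage points (-0.251 to 1.05) lay within counting error. Under the alternatives in processing it ranged from 0.251 to 0.876 points, and its interval left out 0 with no Malat1 limit (0.742, 0.071 to 1.42) and at 2 or more UMIs of the 4 genes (0.876, 0.123 to 1.63).

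General capillary ECs (gCap), the main capillary cells of the alveolus, held most members. Beds were named from clusters made without the platelet lists and, by a choice made after seeing the data, without 127 further genes called higher in members. The values under the planned clustering, which weaken the contrast of the capillary beds, follow in the next paragraph. In gCap-like barcodes 251 of 5151 were marked in control (4.87%, 4.30 to 5.50) and 228 of 4741 in B16-F10 (4.81%, 4.22 to 5.46). In aerocytes (aCap), the thin capillary cells of gas exchange, 37 of 1561 (2.37%, 1.67 to 3.25) and 28 of 1051 (2.66%, 1.78 to 3.83) were marked. Artery-like barcodes had 2 of 241 (0.83%) and 2 of 177 (1.13%). Vein-like barcodes had 10 of 358 (2.79%) and 10 of 373 (2.68%), and lymphatic (LEC-like) barcodes 2 of 59 (3.39%) and 2 of 58 (3.45%). The gCap-like share exceeded the aCap-like share by 2.50 points (1.46 to 3.40) in control and 2.14 points (0.852 to 3.18) in B16-F10, and the artery-like share by 4.04 (1.83 to 4.91) and 3.68 points (0.727 to 4.72). Against vein-like and LEC-like barcodes the intervals of the difference included 0. The gCap-like group made up 77.7% of control members and 71.7% of B16-F10 members, against 64.0% and 66.6% of zero-UMI barcodes.

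The capillary contrast depended on which genes made the clusters. In the planned clustering, which left out only the fixed lists, a cluster of 175 barcodes formed, 170 of which (97.1%) were members. It was led by Ppbp and Pf4, carried 7 of 7 gCap markers and stayed unnamed. With those members outside the beds, the gCap-like share was 3.07% in control and 3.50% in B16-F10 and the aCap-like share 2.24% and 2.75%. The difference was 0.824 points (-0.143 to 1.63) and 0.748 points (-0.524 to 1.75), within counting error in both libraries. When each barcode was assigned by its own marker UMIs instead, the difference was 2.42 points (1.35 to 3.37) and 1.85 points (0.548 to 2.94). The order of the other beds was not kept under that assignment. The artery share was then 1.99% in control and 3.63% in B16-F10, the vein share 4.18% and 4.10%, and the LEC share 4.44% and 6.89%, beside a gCap share of 5.01% and 4.90% and an aCap share of 2.58% and 3.06%. Different clusters held most of the aCap-like class in the libraries: one led by Ccdc184 and Cdkn2b had 182 control and 727 B16-F10 barcodes, one led by Fibin 710 and 121, and one led by Tmeff2 595 and 161. Among gCap-like clusters, one led by Lalba and Inhbb had 109 control and 1180 B16-F10 barcodes.

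**Figure D1:**
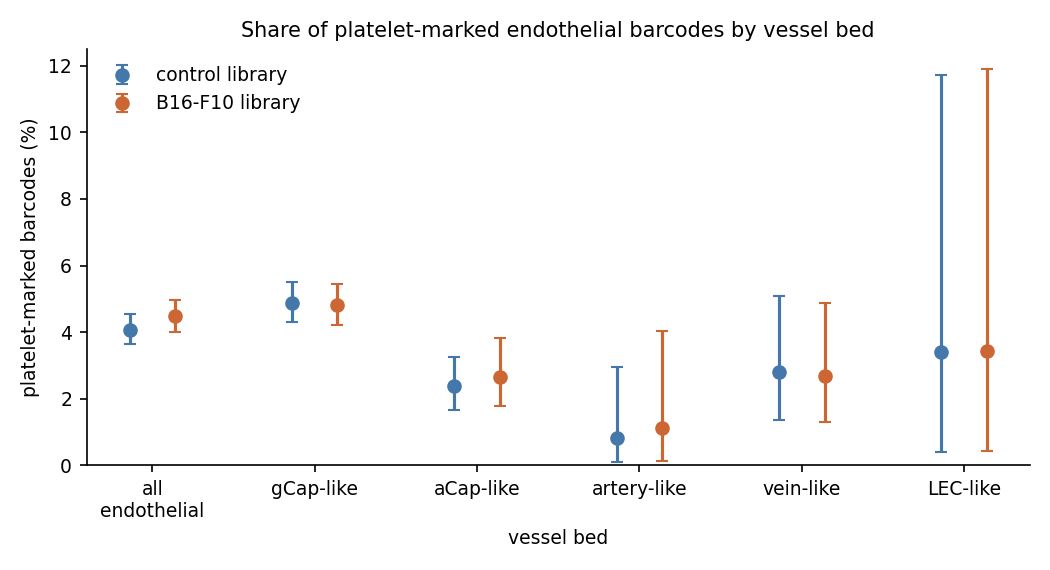
Share of platelet-marked barcodes, in percent of the endothelial barcodes of each vessel bed, in the control and B16-F10 libraries. Points are shares and bars are exact 95% intervals of counting error. Beds are those of the clustering chosen after seeing the data. In both libraries the gCap-like share, 4.87% and 4.81%, lay above the aCap-like share, 2.37% and 2.66%.

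Clusters within a bed differed as well. In gCap-like clusters the control share ran from 1.81% (20 of 1102), in a cluster led by Sh3gl2 and Ccser1, to 10.1% (11 of 109), in the cluster led by Lalba and Inhbb. The same clusters had 3.17% (32 of 1010) and 5% (59 of 1180) in B16-F10. Unnamed clusters together had 2.36% in control and 7.46% in B16-F10, a difference of 5.10 points (2.13 to 8.19). Of these, a cluster led by Csf2 and Sox9 held 22 members among 230 B16-F10 barcodes (9.57%, 6.09 to 14.1) and 0 among 4 control barcodes, so it was in effect a cluster of the B16-F10 library. Clusters with markers of a second cell type had 7.06% and 5.73%.

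Barcodes without endothelial marks give a level to set beside these shares. Barcodes with 1000 to 5000 genes but under 2 UMIs of Pecam1 and Cdh5 carried at least 3 UMIs of the 4 genes in 2 of 64 cases in control (3.13%, 0.381 to 10.8, median 4166.5 UMIs) and 3 of 117 in B16-F10 (2.56%, 0.532 to 7.31, median 6549 UMIs). Of barcodes with at least 20 UMIs of melanoma markers, 2 of 86 did (2.33%, 0.283 to 8.15, median 9051 UMIs). Whether these UMIs were free RNA or bound platelets was not tested. The artery-like shares lay below these values and the gCap-like shares above them, but the groups are small, and their intervals include the share of every bed. Thinning every barcode to 2000 UMIs and asking for at least 1 UMI of the 4 genes gave 4.91% in control and 5.58% in B16-F10.

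The amount of platelet RNA per member covered a wide range, and other platelet genes followed it. The summed level of the 8 other markers in control was 12.1 CPM in zero-UMI barcodes, 28.2 CPM in barcodes with 1 or 2 UMIs of the rule genes, 168 CPM in members with 3 to 9 (n = 190) and 1136 CPM in members with 10 or more (n = 133). In B16-F10 lungs it was 14.3, 27.8, 164 and 887 CPM, with 211 and 107 members in the last groups. Nrgn, a calmodulin-binding protein abundant in platelets, ran from 5.77 to 62.1, 261 and 1055 CPM in control and from 6.44 to 53.2, 297 and 1043 CPM in B16-F10. Cdh5 stayed between 1749 and 1881 CPM in control and between 1616 and 1849 CPM in B16-F10, lowest in the members with 10 or more UMIs. In near-empty barcodes of 1 to 100 UMIs, which hold free RNA, the 8 markers had 110.2 and 127 CPM, below the level of members with 3 to 9 UMIs.

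**Figure D2:**
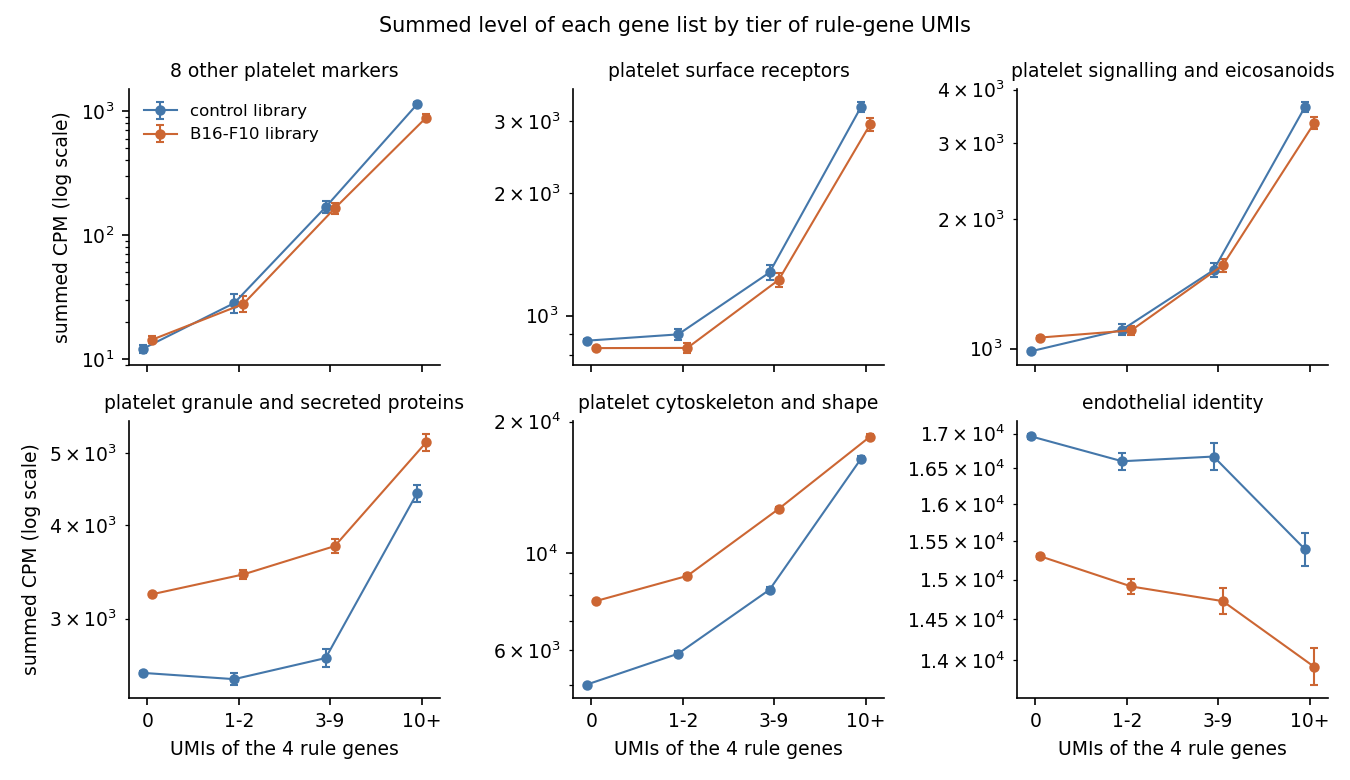
Level in CPM on a log axis against the number of UMIs of the 4 rule genes per barcode (0, 1 to 2, 3 to 9, 10 or more), per library, with exact 95% intervals of counting error. The 8 other platelet markers ran from 12.1 CPM in the lowest group to 1136 CPM in the highest in control, and from 14.3 to 887 CPM in B16-F10.

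The next comparison set the profile of members against zero-UMI barcodes within each library. It uses the barcodes the rule chose, so it is a description. A gene was called where its level differed at least 2-fold and the interval of the ratio left out 0 on the log2 scale, for genes that had 50 or more UMIs in the groups compared. Of 12987 genes measured in both libraries, 116 were higher in members in both (0.893%) and 58 were lower in both (0.447%). Within single libraries 222 of 13368 were higher (1.66%) and 353 lower (2.64%) in control, and 247 of 13464 higher (1.83%) and 300 lower (2.23%) in B16-F10. Of the 116, 4 are the rule genes, 31 belong to the platelet lists below and 79 to no list used here. The 112 genes without the rule genes held 1.37% of the UMIs of control members and 1.26% of B16-F10 members, against 0.314% and 0.383% in zero-UMI barcodes. In 12 genes the calls of the libraries had opposite directions.

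**Figure D3:**
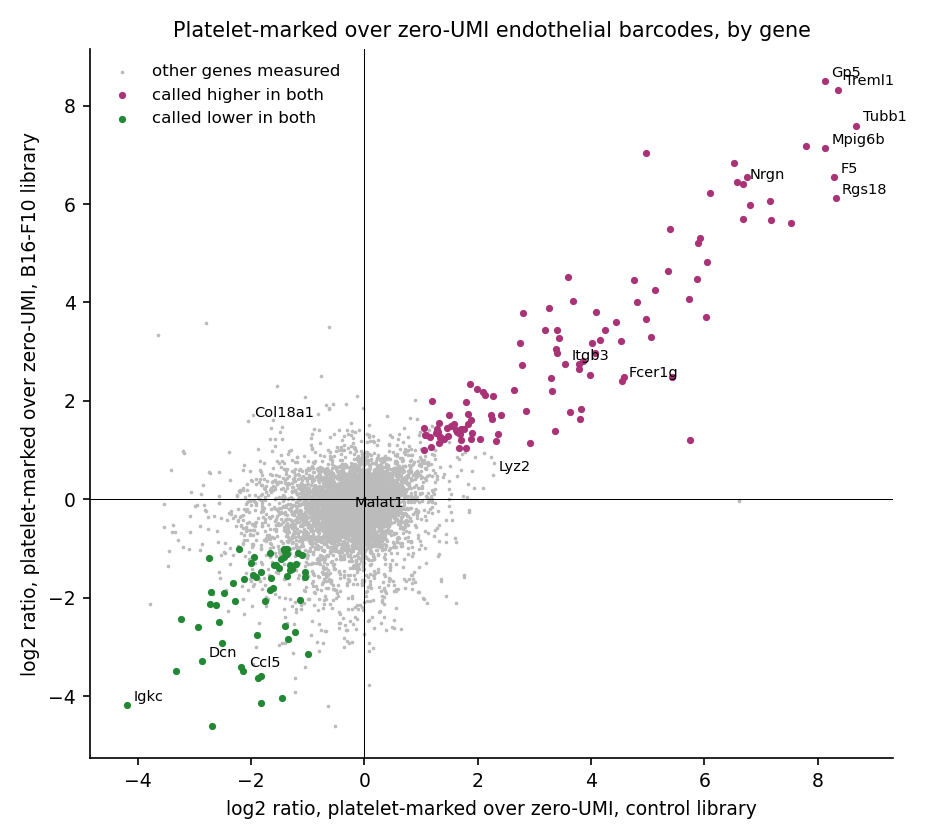
Log2 ratio of members over zero-UMI barcodes in the control library (horizontal) and in the B16-F10 library (vertical), 1 point per measured gene, with sums of 0 placed at the floor of 3 counts and the rule genes left out. The 112 genes called higher in both, in purple, reach 8.37 and 8.33 for Treml1, the 58 called lower in both are green, and most genes, in grey, lie near 0.

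The surface receptors of platelets gave the clearest group. Of 13 measured in both libraries, 12 were higher in both, with a median log2 ratio of 6.57 in control and 5.98 in B16-F10, beside a median of -0.08 and -0.06 over all genes measured. Treml1 (ENSMUSG00000023993, chr17:48359916-48367176), a receptor of platelet granules that reaches the surface on activation, had 283 UMIs (92.7 CPM) in control members and 216 (66.1 CPM) in B16-F10 members, against 0.281 and 0.206 CPM in zero-UMI barcodes. Its log2 ratio was 8.37 (7.64 to 9.19) and 8.33 (7.49 to 9.30). Both libraries thus placed it far above the comparison group, 329.7-fold in control and 321-fold in B16-F10. Gp5, a subunit of the glycoprotein Ib complex, had 49.2 and 37.0 CPM with ratios of 8.13 and 8.49, and Gp1bb, another subunit, 46.9 and 25.4 CPM with ratios of 6.57 and 6.44. Gp6, the collagen receptor, reached 7.79 and 7.18, the co-receptor Mpig6b 8.13 and 7.13, and P2ry12, the ADP receptor, 7.16 and 6.07. Clec1b, the podoplanin receptor, was the most abundant of those called, with 267 and 171 CPM against 6.35 and 3.78 CPM. Itgb3, the beta chain that pairs with Itga2b, had smaller ratios, 3.54 (3.25 to 3.83) and 2.75 (2.51 to 2.98), and its zero-UMI level was 4.57 and 9.61 CPM. The receptor without a call was the tetraspanin Cd9, which ECs also express: it had 1346 and 1248 CPM in members against 852 and 807 CPM, a ratio of 0.66 and 0.63. Gp1ba, which did not reach 50 UMIs in both comparisons, had 30 and 27 UMIs in members against levels of 0.0176 and 0.0515 CPM in zero-UMI barcodes.

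Granule and secreted proteins were split. Of 17 measured, 5 were higher in both libraries and 1, the T cell chemokine Ccl5, was lower. F5 (ENSMUSG00000026579, chr1:164151838-164220277), coagulation factor V, had 60.3 and 35.5 CPM in members against 0.193 and 0.378 CPM, a ratio of 8.28 (7.41 to 9.31) and 6.55 (5.89 to 7.28). The fixed list also holds Nrgn, the calmodulin-binding protein named above, which is not a typical granule or secreted product. Nrgn was the most abundant called gene of the list, with 591 and 550.0 CPM against 5.77 and 6.44 CPM. Its ratio was 6.68 (6.51 to 6.85) and 6.42 (6.26 to 6.58). Thbs1, the matrix protein thrombospondin 1, had 111 and 110.2 CPM against 6.66 and 14.1 CPM. F13a1, a subunit of factor XIII, and Serpine2, a thrombin inhibitor, completed the 5. Among granule genes that ECs also express, Pdgfa was called in B16-F10 alone, with 232 CPM against 108 CPM, a ratio of 1.10 (0.99 to 1.21), and 0.58 in control. Others were not called: the proteoglycan Srgn had a ratio of 0.26 and 0.23, Sparc of 0.37 and 0.15, and Vwf, the von Willebrand factor, of -0.16 and -0.41. Over the list the median was 0.26 and 0.23.

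Cytoskeletal genes had 7 of 16 members higher in both libraries, with a median ratio of 0.99 and 0.76. Tubb1 (ENSMUSG00000016255, chr2:174450695-174457882), the beta tubulin of the platelet microtubule ring, had 88 and 65 UMIs in members and 4 and 6 UMIs in zero-UMI barcodes, a ratio of 8.68 (7.27 to 10.6) and 7.59 (6.39 to 9.09). Myl9, a myosin light chain, had 142 and 113 CPM against 2.14 and 3.9998 CPM. Tmsb4x, thymosin beta 4, which sequesters actin, was the most abundant gene among all those called, with 6523 and 6285 CPM in members against 2025 and 2498 CPM, a ratio of 1.69 (1.67 to 1.71) and 1.33 (1.31 to 1.35). Actb, at 2503 and 4879 CPM, and Pfn1, profilin, stayed under 2-fold with ratios of 0.86 and 0.71 and of 0.47 and 0.43.

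Signalling genes had 7 of 17 higher in both, with a median of 1.23 and 1.02. Rgs18 (ENSMUSG00000026357, chr1:144752683-144775435), a regulator of G protein signalling in platelets, had 67.2 and 58.5 CPM against 0.211 and 0.841 CPM, a ratio of 8.32 (7.48 to 9.29) and 6.12 (5.66 to 6.60). Plek, pleckstrin, the main substrate of protein kinase C in platelets, had 213 and 173 CPM against 7.89 and 7.90 CPM. Alox12, the platelet lipoxygenase, had 112 and 89.1 CPM against 1.90 and 2.40 CPM, and Fermt3, the kindlin that activates platelet integrins, 115 and 81.7 CPM against 6.50 and 8.6004 CPM. Gng11, a G protein subunit that ECs share, was called in control with 1.23 but not in B16-F10 with 0.91. Outside the lists, Rbpms2, an RNA-binding protein, Tmem40 and the actin bundler Pls1 were among the 15 genes with the largest ratios, at 6.10 or more in both libraries.

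Transcription factors of megakaryocytes, which act in the nucleus, were split. Gata1 and Gfi1b, which did not reach 50 UMIs, were nearly absent from zero-UMI barcodes. Gata1 had 21 UMIs in control members and 0 in zero-UMI barcodes, at least 7.03 higher on the log2 scale against the floor of 3 counts, and 7 UMIs in B16-F10 members, a ratio of 4.64 (2.77 to 6.64). Gfi1b had 6 UMIs against 0 in control, at least 5.22 higher, and 7 UMIs in B16-F10 members, a ratio of 6.96 (4.003 to 12.5). Of 7 measured, only Nfe2 was higher in both libraries, with 25.2 and 12.9 CPM against 0.756 and 1.30 CPM. Factors that ECs also make were not called in both: Fli1 had a ratio of -0.15 and -0.04, Tal1 of 0.15 and -0.02, and Meis1 of -0.41 and -0.38. The median of the 7 was 0.15 and -0.02. Red cell genes had a median of -0.42 and -0.91, and Hbb-bs and Hba-a2 were called lower in control. Their summed level was 1773 and 2004 CPM in zero-UMI barcodes and 702 and 1018 CPM in barcodes with 1 or 2 rule-gene UMIs. It was 933 and 1084 CPM in members with 3 to 9 such UMIs and 1090 and 1333 CPM with 10 or more. The lower level was thus not particular to members. Hbb-bs, a beta globin, had 394 and 505 CPM in members against 831 and 974 CPM, a ratio of -1.08 (-1.16 to -0.99) and -0.95 (-1.02 to -0.88), and Hba-a1, an alpha globin, a ratio of -0.42 and -0.40. The globin genes are near-identical copies, so reads may be split between them.

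Barcodes rich in platelet RNA with few genes gave a reference for this profile. These few-gene platelet barcodes, with under 300 genes, 0 Cdh5 UMIs and at least 10 UMIs of the 4 genes, numbered 194 in control and 129 in B16-F10, with a median of 465 and 476 UMIs. Malat1 made up 0.19% and 0.179% of their UMIs, below the limit of 0.5% that the rule set for members. Their most abundant transcript was Tmsb4x, with 102729 and 97614 CPM. Pf4 had 19155 and 17521 CPM and Nrgn 14569 and 15999 CPM. Of the transcription factors above, these barcodes held Gata1 in both libraries and Gfi1b in control, each at a higher CPM than in members. The summed UMIs of these barcodes were few, so such low levels are rough. They held RNA of other cells too, with Hba-a1 at 7346 and 8120 CPM, Ramp2 at 757 and 384 CPM, Cldn5 at 489.7 and 400.4 CPM and Pecam1 at 367 and 480.5 CPM, while Cdh5 was 0 by the rule. Of the 116 genes higher in members, 110 were at least 2-fold higher in these barcodes than in zero-UMI barcodes in both libraries (94.8%), against 543 of all 12987 genes (4.18%). The 116 include the 4 rule genes, and these genes chose both groups of barcodes, so the share is a description. The 112 genes without the rule genes made up 21.3% and 19.98% of their UMIs. The level of the 8 other markers in members was divided by that in these barcodes, after the zero-UMI level was subtracted from both. By this measure RNA of this kind equalled 5.79% of member UMIs in control and 5.43% in B16-F10. With the reference widened to under 1000 genes, chosen after seeing the data, it equalled 4.61% and 3.64%. The 4 rule genes, which chose both groups, gave 4.49% and 3.82% with the first reference.

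**Figure D4:**
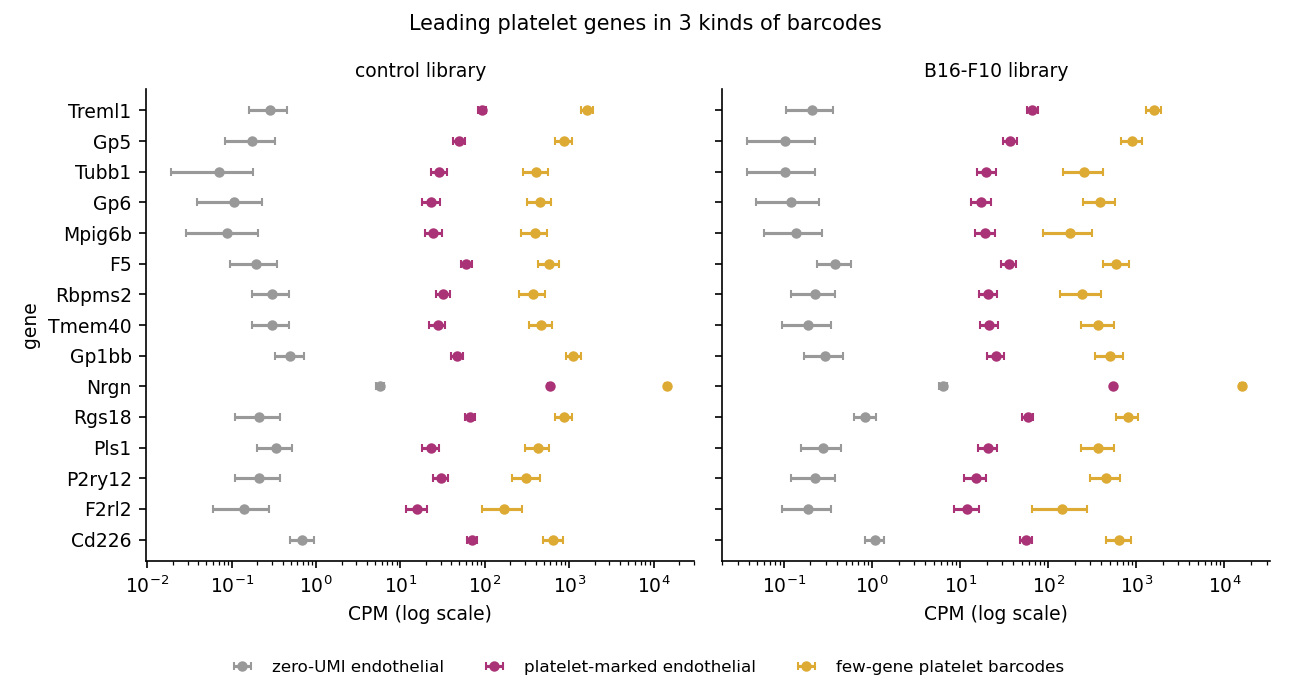
Levels in CPM on a log axis of the 15 genes with the largest ratios in zero-UMI barcodes, in platelet-marked barcodes and in the few-gene platelet barcodes, per library. In each of these genes the member level lay between the other groups, as for Treml1 in control with 0.281, 92.7 and 1647 CPM.

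Identity genes of the endothelium were at nearly the same level in members and zero-UMI barcodes, while some adhesion and coagulation genes were lower in control members. Of 18 identity genes none was called in either direction in either library, and calls were rare over all genes too, at 0.893% higher and 0.447% lower in both, so the count says little. The median ratio was -0.09 in both, close to that of all genes. The list holds Pecam1 and Cdh5, which the rule required of both groups. Ramp2, an adrenomedullin receptor subunit, had 3236 and 2241 CPM in members against 3440 and 2424 CPM, Cldn5, the tight junction claudin, 2139 and 2482 CPM against 2178 and 2484 CPM, and Egfl7 1333 and 1106 CPM against 1288 and 1117 CPM. Kdr, the VEGF receptor, had the ratios -0.35 and -0.33. Adhesion and activation genes had 0 of 14 called in both libraries, with a median of -0.27 in control and -0.06 in B16-F10. Icam1, a leukocyte adhesion molecule, had 136 and 256 CPM against 185 and 310 CPM, a ratio of -0.44 and -0.28, and Nfkbia, the NF-kB inhibitor, 0.11 and 0.19. In B16-F10 alone 0 of 16 were called lower, and in control 3 of 14, beside 2.64% of all genes. Those in control were Ptgs2 (3 UMIs in members), Cxcl9 (0 UMIs) and Vcam1. Vcam1 had 8.52 against 40.2 CPM in control and 77.1 against 88.3 CPM in B16-F10. Of 15 coagulation and fibrinolysis genes none was called in both, and 2 were called lower in control, Procr (4 UMIs) and F8 (6 UMIs). Thbd, thrombomodulin, the thrombin receptor of ECs, had -0.15 and -0.25.

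Early response genes, which thrombin and other stimuli induce within minutes to hours, had a median of -0.13 and -0.06. Of 16 measured in both libraries 0 were called in both, where all genes had 0.893% called higher and 0.447% lower. In B16-F10 alone 2 of 18 were called higher, beside 1.83% of all genes. These were Egr3 at 1.10 (0.52 to 1.63) and Fosl1 at 1.06 (0.78 to 1.33). Fosl1 was also among the leading genes of the cluster led by Csf2, without which it had 0.90. Jun had 1476 and 1688 CPM in members against 1328 and 1757 CPM, Klf2 854 and 965 CPM against 846 and 1062 CPM, and Fos 78.6 and 297 CPM against 80.3 and 314 CPM. The reactive capillary genes the study follows had 0 of 10 called and a median of -0.08 and 0.02. The study chose these genes partly on these libraries. Pim3, a serine/threonine kinase, had 72.7 and 290.5 CPM in members against 75.1 and 273 CPM, and Socs3, a cytokine signalling inhibitor, 66.5 and 416 CPM against 60.2 and 408 CPM. For both genes the libraries differed far more than the groups of barcodes within them.

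Several of the 10 genes with the lowest ratios are marks of other cells. Igkc, an immunoglobulin chain, had 1 UMI in control and 5 UMIs in B16-F10 members against 5.99 and 27.8 CPM in zero-UMI barcodes, a ratio of -4.19 (-9.50 to -1.71) and -4.19 (-5.81 to -2.96). Cd79a, a B cell receptor subunit, had 1 UMI in each library and a ratio of -2.69 (-8.00 to -0.18) and -4.60 (-9.90 to -2.11). A mixed cluster led by Igkc and with Cd79a among its leading genes held 51 endothelial barcodes, of which 1 was a member. Another, with T and NK cell markers, held 25 barcodes and 0 members. Dcn, a fibroblast proteoglycan, Napsa, an alveolar epithelial protease, and the antigen-presentation ligase gene March1 were also among the 10, together with Sfrp1, a Wnt inhibitor that was among the leading genes of the artery-like cluster. Gpm6a, a membrane glycoprotein gene that was among the leading genes of the LEC-like cluster, had -3.23 (-6.29 to -1.37) and -2.43 (-4.71 to -0.87). Each of these 10 genes had at most 5 UMIs in the members of a library. Within gCap-like barcodes alone 8 genes were lower in both libraries instead of 58, and 2 of them were among the 58.

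Marker lists of other cell types stand beside these values. Of the macrophage and monocyte list, at least 1 UMI was present in 64.4% of control and 68.2% of B16-F10 members, against 10.7% and 22.6% of zero-UMI barcodes, and its summed level was 211 and 200.2 CPM against 41.2 and 124 CPM. Lyz2, lysozyme, and Fcer1g, a signalling chain that the platelet receptor list holds too, gave 629 of 644 and 617 of 654 of these UMIs. The defining markers C1qa, C1qb and Ccr2 were at 0 in the members of both libraries, and Csf1r had 1 and 0 UMIs. In zero-UMI barcodes C1qa had 0.0527 and 0.0858 CPM, C1qb 0.0703 and 0.206 CPM, and Ccr2 0.299 and 2.45 CPM. The zeros of C1qa and C1qb, and that of Ccr2 in control, thus say little, because these genes were near 0 in both groups. Cd68 had 4 and 7 UMIs, or 1.31 and 2.14 CPM against 0.545 and 1.87 CPM in zero-UMI barcodes, and Mrc1 10 and 30 UMIs, or 3.28 and 9.18 CPM against 5.77 and 7.004 CPM. Lyz2 had 3406 and 3411 CPM in the few-gene platelet barcodes, which hold RNA of other cells too, against 154 and 143 CPM in members and 32.0 and 102 CPM in zero-UMI barcodes. When barcodes with any UMI of the list other than Fcer1g were left out, an alternative added after seeing the data, 51 genes were higher in members in both libraries instead of 116, and 115 when Lyz2 was also kept out of the list. The part of leukocyte RNA in the profile was not tested further. Neutrophil markers had 1.64 and 4.90 CPM in members against 2.71 and 39.9, and B cell markers 1.31 and 2.45 against 11.2 and 44.6. Epithelial markers had 188 and 167 against 327 and 378 CPM. Red cell markers had 942 and 1117 against 1743 and 1956 CPM, a lower level that, as above, was not particular to members. Mural markers had 72.7 and 90.9 CPM against 51.1 and 83.5, and fibroblast markers 11.8 and 20.2 against 12.2 and 46.3 CPM.

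The last comparison set B16-F10 against control lungs within the platelet-marked barcodes. Of 9321 genes measured, 358 were at least 2-fold higher (3.84%) and 170 lower (1.82%) in B16-F10 members. In zero-UMI barcodes 739 of 14687 were higher (5.03%) and 490 lower (3.34%). The sums differ in depth, so these shares are not compared. Without the cluster led by Csf2, an alternative added after seeing the data, 231 genes were higher in members, and within gCap-like barcodes 212.

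Reactive capillary genes were higher in B16-F10 members throughout: 10 of 10, with a median log2 ratio of 2.05, beside 3.84% of all genes. In zero-UMI barcodes 9 of 10 were higher, with a median of 1.92, beside 5.03% of all genes. The study chose these genes partly on these libraries, in which it compared injected and control lungs, so these counts are a description. Inhbb (ENSMUSG00000037035, chr1:119415465-119422248), an activin subunit, had 11 UMIs (3.60 CPM) in control and 535 UMIs (164 CPM) in B16-F10 members, a ratio of 5.51 (4.65 to 6.52), and of 4.59 (4.40 to 4.78) in zero-UMI barcodes. Without the cluster led by Csf2 its ratio in members was 4.82. Socs3 had 2.64 (2.43 to 2.86) in members and 2.76 in zero-UMI barcodes, Bcl3, an NF-kB cofactor, 2.77 (2.34 to 3.24) and 2.73, and Pim3 2.00 (1.79 to 2.21) and 1.86. The protease Adamts9 had 1.87 and 1.58, and Scarb1, a lipoprotein receptor, 1.20 in both.

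Adhesion genes had 8 of 13 higher in B16-F10 members and a median of 1.42, with 9 of 16 and 1.21 in zero-UMI barcodes, beside the same 3.84% and 5.03% of all genes. The selectin Selp, which ECs and platelets both make, had 13 UMIs (4.26 CPM) in control and 102 UMIs (31.2 CPM) in B16-F10 members, a ratio of 2.87 (2.04 to 3.83), and of 2.25 in zero-UMI barcodes. Sele, the endothelial selectin, had 2 and 48 UMIs in members, a ratio of 4.49 (2.56 to 7.57), and of 3.74 in zero-UMI barcodes. Cxcl10, an interferon-induced chemokine, had 0 UMIs in control and 155 UMIs in B16-F10 members. It was at least 5.59 higher on the log2 scale when set against the floor of 3 counts, with a ratio of 6.02 in zero-UMI barcodes. Early response genes had 9 of 14 higher and a median of 1.54, with 1.64 in zero-UMI barcodes; Junb rose by 1.68 (1.56 to 1.80) and 2.02. Endothelial identity genes had none called and a median of -0.17 in both groups of barcodes.

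**Figure D5:**
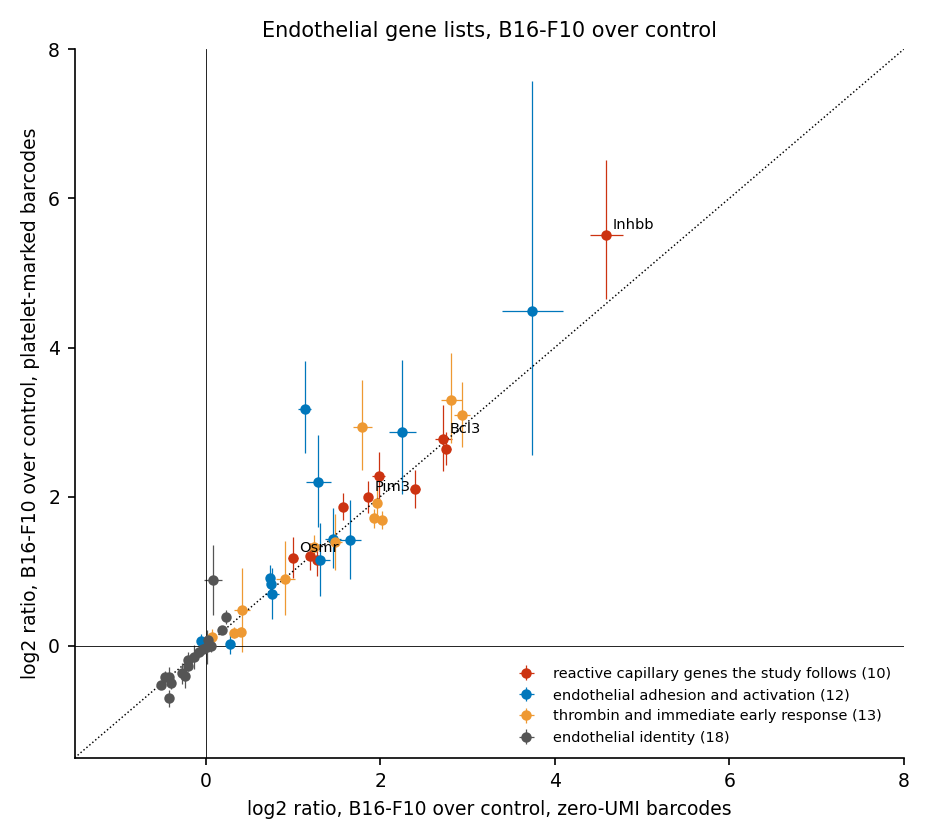
Log2 ratio of B16-F10 over control in members (vertical) against that in zero-UMI barcodes (horizontal), 1 point per gene of 4 endothelial lists, with genes at 0 UMIs in control members left out and a dotted line of equal ratios. Reactive capillary genes lie at 1.15 or more in members, and endothelial identity genes lie between -0.70 and 0.88.

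The genes with the largest rise in members included several that lead the cluster of Csf2. Myc, a growth transcription factor, had 1 UMI in control and 119 UMIs in B16-F10 members, a ratio of 6.80 (4.29 to 12.1), and Tubb6, a beta tubulin, 3 and 212 UMIs, a ratio of 6.04 (4.48 to 8.33). Without that cluster the ratios were 5.78 (3.24 to 11.1) and 4.27 (2.65 to 6.59). Col18a1, a basement membrane collagen, had 3 and 169 UMIs, a ratio of 5.72 (4.15 to 8.01), the lncRNA Pvt1 1 and 63 UMIs, a ratio of 5.88 (3.35 to 11.2), and Mt1, metallothionein 1, 8 and 309 UMIs, a ratio of 5.17 (4.18 to 6.40). Fosl1 had 0 and 126 UMIs, at least 5.29 higher against the floor, with a ratio of 4.68 in zero-UMI barcodes. Among genes that fell, the guidance gene Sema5a had 204 and 31 UMIs, a ratio of -2.82 (-3.41 to -2.27), and Bmp4, a growth factor, 178 and 59 UMIs, a ratio of -1.69 (-2.14 to -1.26). Axin2, a Wnt target, and Bmx, an arterial kinase, fell by 2.06 and 2.05. Apart from Fosl1, the ratios of these genes in zero-UMI barcodes are not given here, so the changes are not shown to be particular to members.

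Platelet genes differed by list between B16-F10 and control members. Over all genes measured in members 3.84% were called higher and 1.82% lower, and the counts below stand beside these shares. The 4 rule genes, which chose the members, had log2 ratios of -0.43 for Pf4, -0.54 for Ppbp, -0.39 for Gp9 and -0.24 for Itga2b, given as a description. Of 14 receptor genes 1 was called, P2ry12, which was lower at -1.01 (-1.54 to -0.49), and the list's median was -0.36. The 8 other markers had none called and a median of -0.45, with a range from -0.88 for Gp1bb to 0.28 for Itgb3. Of 16 granule genes 3 were higher and 1 lower, with a median of 0.09. Selp was higher as above, the growth factor Pdgfa at 2.81 (2.51 to 3.12) and the protease inhibitor Timp3 at 1.33 (1.21 to 1.45), and F13a1 was lower at -1.37 (-2.23 to -0.57). In zero-UMI barcodes the ratio was 2.28 for Pdgfa and 0.53 for Timp3, and 3.17 for F13a1, the opposite direction. Pdgfa was also among the leading genes of the cluster led by Csf2. Of 16 cytoskeletal genes 1 was higher, the tropomyosin Tpm1 at 1.17 (1.01 to 1.33) beside 0.73 in zero-UMI barcodes, and the median was 0.21. Of 14 signalling genes none was called, with a median of -0.26. In zero-UMI barcodes 6 of the 16 receptor genes reached 50 UMIs, and their median was 0.87. Melanoma markers had 25.7 CPM in B16-F10 members against 41.0 CPM in zero-UMI barcodes of that library, with Tyr at 0 UMIs, and 1.64 and 0.967 CPM in control. Pmel, the melanosome protein used as a melanoma marker, had 7.35 CPM in B16-F10 members and 9.42 CPM in zero-UMI barcodes.

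Platelet RNA was also present in barcodes that the rule left out. Of endothelial barcodes with over 5000 genes, 30 of 327 in control (9.17%, 6.28 to 12.8) and 58 of 604 in B16-F10 (9.60%, 7.37 to 12.2) held at least 3 UMIs of the 4 genes, at a median depth of 21536 and 22417 UMIs. Of barcodes with Malat1 under the limit, 62 of 353 (17.6%) and 113 of 880 (12.8%) did. Of barcodes with 300 or more but under 1000 genes, 539 of 1736 (31.0%) and 751 of 2540 (29.6%) did, at a median of 927 and 900 UMIs. The barcodes of 300 to 1000 genes were not limited by Malat1, Pecam1 or Cdh5. With these limits kept and the lower limit of genes set to 300, the share of all endothelial barcodes was 4.05% in control and 4.50% in B16-F10, near that of the rule.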

How the data were processed

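Each library was 1 sample of pooled mice, sequenced with a 10x Genomics 3' kit. The authors deposited raw UMI counts per gene and barcode, for which headers and the submitters' processing notes name Cell Ranger 7.2.0, and the notes also mm10 and Seurat 4.4.0. The matrices were unfiltered, with 1597090 and 1779952 barcodes, and whether intronic reads were counted is not given in the sources used here. The members and the gene lists were chosen with earlier results of these data known.

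From the counts, barcodes were selected by the rule, and UMIs were summed per group of barcodes and given as CPM with exact Poisson intervals. Ratios have exact conditional binomial intervals, shares Clopper-Pearson intervals and differences of shares Newcombe intervals, all of 95% and of counting error only. A sum of 0 was replaced by a floor of 3 counts in ratios. A gene was measured where it had 50 or more UMIs in the groups compared and called at 2-fold. The calls were run on Poisson counts simulated for these genes with known changes planted in some. The intervals assume the same model, without variation between cells, so the run cannot show how calls behave under such variation.

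Endothelial barcodes were clustered with scanpy 1.11.5 and leidenalg 0.10.2 (3000 variable genes, 30 principal components, 20 neighbours, resolution 0.8), scaled within each library, without the fixed lists and without 127 variable genes called higher in members. The latter choice, which left 2773 genes and gave 20 clusters, departs from the planned clustering and was made after seeing that platelet RNA formed a cluster of its own. A cluster was named for a bed only with at least 3, and over 60%, of the bed's fixed markers. A marker counted at 1.5 times the mean of all endothelial barcodes, in at least 10% of the cluster. For gCap the mean itself was enough, so the gCap name was easier to reach. Clusters with markers of a second cell type were called mixed. Those whose leading genes held more markers of another class stayed unnamed. Scrublet marked doublets, which were kept. Python 3.11.15, numpy 2.4.6, scipy 1.17.1 and pandas 2.3.3 were used. Of 32285 gene IDs, 32235 were found in GENCODE M21, which gave coordinates.

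Genes named were the rule genes with Pecam1, Cdh5 and Malat1, the 15 with the largest ratio and the 10 with the lowest among those called in both libraries, the 8 that rose and 8 that fell most in B16-F10 members, the 4 most abundant of each list, and Itgb3, Gp1bb, Tubb1, Treml1, Vwf, Selp, Sele, Icam1, Pim3, Bcl3, Inhbb, Hba-a1 and Pmel. Some genes that this rule or the lists hold are not reported here. Other genes of the lists were named after their values were seen. Alternatives covered the limits of the rule, the depth, doublets, the clustering and the measured minimum. Those on UMIs of at least 2 of the 4 genes, on macrophage markers, on the cluster led by Csf2 and on the platelet reference were chosen after seeing the data.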

Additional observations from a re-analysis of the deposited data

Results flagged for a closer look

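With 1 library per group none of the differences below was tested, and each is given because the log2 ratio had opposite signs in the groups compared. In B16-F10 over control, Cd226, a platelet adhesion receptor, had -0.32 in platelet-marked and 0.66 in zero-UMI barcodes. Rgs10 had -0.44 and 0.36, Gng11 -0.21 and 0.10, and Tmsb4x -0.054 and 0.30. These are platelet genes that are also detected in zero-UMI barcodes.

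In platelet-marked over zero-UMI barcodes, Col18a1 had -2.05 in control and 1.59 in B16-F10, and 0.26 in B16-F10 without the cluster led by Csf2, an alternative added after seeing the data. Its control value rests on 3 UMIs in members. Mt1 had -1.22 and 0.62, Timp3 -0.72 and 0.084, and Jun 0.15 and -0.057. The causes were not tested.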

How the results depend on the processing

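No paired analysis was possible because control and B16-F10 were 1 library each. Of 3373 values over 321 results, 2875 moved by less than their counting interval or kept their count within 1.5 times, 495 moved and 3 reversed sign. The share of members followed the rule. In control and B16-F10 it was 4.65% and 5.40% with no Malat1 limit, 5.44% and 6.32% at 2 UMIs or more, 2.78% and 3.07% at 5 or more, 2.39% and 2.64% without Pf4, 3.55% and 3.799% with UMIs of at least 2 of the 4 genes, 1.98% and 2.30% without macrophage-list UMIs other than Fcer1g, and 4.91% and 5.58% thinned to 2000 UMIs, with 81 and 47 shallower barcodes left out. The gCap-like share was 6.31% and 6.73% at 2 UMIs or more, 3.22% and 3.33% at 5 or more, 5.68% and 5.69% thinned, and 3.07% and 3.50% in the planned clustering, with only the fixed lists left out. The aCap-like share was 3.65% at 2 UMIs or more in control and 3.84% thinned in B16-F10, and the LEC-like share was 0 at 5 or more in control and 0 without doublets in B16-F10. The gCap-like minus aCap-like difference was 0.824 and 0.748 points in the planned clustering, and 1.36 points at 5 UMIs or more in control.

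Genes higher in members in both libraries numbered 59 with at least 200 UMIs and 51 without macrophage-list UMIs, against 116, and those lower in both 8 within gCap-like barcodes, against 58. Genes higher in B16-F10 members numbered 212 within gCap-like barcodes and 231 without the cluster led by Csf2, against 358. Reversed ratios of members over zero-UMI barcodes were Pvt1 (-0.18) in B16-F10 and Mt1 (0.64) in control, both within gCap-like barcodes, and Gpm6a (0.17) in control without macrophage-list UMIs. The causes were not tested. Where an alternative left a sum of 0, no value was computed. The median ratio of the reactive capillary genes in B16-F10 over control members ran from 1.89 to 2.26. Depth limits the low genes, since sums of 1 to 5 UMIs over all members of a library leave wide intervals.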
